A study of Mus musculus with 8 samples.

Results

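The 9 genes described here encode the DNA methyltransferases and their regulatory partner (*Dnmt1*, *Dnmt3a*, *Dnmt3b* and *Dnmt3l*), the UHRF proteins (*Uhrf1* and *Uhrf2*) and the TET dioxygenases (*Tet1*, *Tet2* and *Tet3*). They were chosen by family membership, at a time when earlier results of these data were known. All 9 were among the 21058 genes of the count table, and all 9 were among the 17643 genes tested. Transcript abundance was measured by RNA-seq of mRNA from pachytene spermatocytes, with 4 *Arid1a* WT and 4 *Arid1a* cKO libraries. *Arid1a* cKO males were homozygous for the floxed allele (*Arid1a* fl/fl) and carried the *Stra8-Cre* transgene (Tg/0). The *Arid1a* WT males are given as *Arid1a* fl/+ or *Arid1a* fl/fl with no Cre named, so floxed *Arid1a* was carried by both groups. Floxed mice were on a CD1 background, and the spermatocytes were purified from pooled testes of adult males with the Sta-Put method, a separation of cells by sedimentation under gravity. The study pooled fractions judged by light microscopy to be mostly pachytene spermatocytes, so RNA of other cells can be present. The *Stra8-Cre* transgene is expressed from the spermatogonial stage. The study describes incomplete excision, which leaves escaper spermatocytes with ARID1A in cKO testes. The labels describe biological replicates, and the p-values given here measure the spread between these samples. Whether the 4 libraries of a genotype came from separate purifications is not stated in the methods of the study.

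In mammals, DNMT1 copies CpG methylation onto newly made DNA after replication, guided by UHRF1, which recognises hemimethylated sites. DNMT3A and DNMT3B methylate unmodified DNA, and DNMT3L, which has no catalytic activity of its own, stimulates them. The TET enzymes oxidise methylated cytosine, which opens a path back to the unmodified base. In the male germ line, most de novo methylation is laid down before birth in prospermatogonia, so that meiotic cells already carry a methylated genome. *Dnmt1* and *Dnmt3l* are both known for alternative start sites whose use differs between germ cell types.

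Promoter sequences are shown for *Dnmt1*, *Dnmt3l* and *Dnmt3a*, the 3 members with the largest differences after the rarely counted *Tet2* is set aside, because their annotated starts differ in base composition. Each is the 250 bases before a RefSeq start on GRCm38.p6, 5′ to 3′ on the strand of the gene, with CpG dinucleotides in capitals. Starts whose window overlaps an annotated exon are not shown. The windows are *Dnmt1* start 1 (chr9:20959889-20960138, minus strand), *Dnmt1* start 2 (chr9:20952980-20953229, minus strand), *Dnmt3l* start 2 (chr10:78049592-78049841, plus strand), *Dnmt3l* start 3 (chr10:78055085-78055334, plus strand) and *Dnmt3a* start 1 (chr12:3806730-3806979, plus strand).
Dnmt1 start 1: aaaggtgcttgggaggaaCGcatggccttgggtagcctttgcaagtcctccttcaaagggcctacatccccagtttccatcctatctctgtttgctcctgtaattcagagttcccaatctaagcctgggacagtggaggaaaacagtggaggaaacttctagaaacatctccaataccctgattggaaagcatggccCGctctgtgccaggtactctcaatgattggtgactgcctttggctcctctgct
Dnmt1 start 2: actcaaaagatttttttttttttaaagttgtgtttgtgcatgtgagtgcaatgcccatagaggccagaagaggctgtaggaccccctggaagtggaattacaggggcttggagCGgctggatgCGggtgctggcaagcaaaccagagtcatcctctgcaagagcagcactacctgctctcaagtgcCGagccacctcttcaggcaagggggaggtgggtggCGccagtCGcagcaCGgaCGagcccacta
Dnmt3l start 2: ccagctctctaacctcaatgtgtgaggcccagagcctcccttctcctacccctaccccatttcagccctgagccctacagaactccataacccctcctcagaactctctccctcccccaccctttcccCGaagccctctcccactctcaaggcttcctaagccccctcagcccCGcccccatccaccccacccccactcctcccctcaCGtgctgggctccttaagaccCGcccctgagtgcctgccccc
Dnmt3l start 3: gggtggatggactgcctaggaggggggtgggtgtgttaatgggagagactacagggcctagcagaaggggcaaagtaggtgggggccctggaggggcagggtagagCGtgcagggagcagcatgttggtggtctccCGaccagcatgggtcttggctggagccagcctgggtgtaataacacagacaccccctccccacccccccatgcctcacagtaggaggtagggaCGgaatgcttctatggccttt
Dnmt3a start 1: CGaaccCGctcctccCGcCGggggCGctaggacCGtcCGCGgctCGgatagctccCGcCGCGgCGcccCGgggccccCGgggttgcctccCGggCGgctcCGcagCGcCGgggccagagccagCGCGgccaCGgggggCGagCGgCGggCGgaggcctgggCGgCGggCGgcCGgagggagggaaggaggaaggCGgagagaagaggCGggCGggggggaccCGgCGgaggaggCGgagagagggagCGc

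The *Dnmt3l* windows were poor in CpG, with 5, 4 and 3 CpG before starts 1, 2 and 3, against a median of 6 over 32851 annotated mouse promoters of the same length. *Dnmt1* had 2 CpG before start 1, 7 before start 2 and 26 before start 3. *Dnmt3a* had 38, 40 and 15 CpG before the 3 starts examined. The loci of some members, among them *Dnmt3a* and *Tet3*, extend upstream of the starts examined. The *Tet2* window held 51 CpG, more than 99.9% of promoters, and the windows of *Dnmt3b* (21), *Uhrf2* (23), *Tet3* (17) and *Tet1* (15) were also above the median. *Uhrf1* had 10 CpG before its first start and 30 before its second. Which of these starts is used in these cells was not examined, and CpG content was not tested against the direction of change.

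Short motifs were searched on both strands of each window. The GC box GGGCGG, the core of sites bound by SP factors, occurs in 32.74% of all promoters. It was present 2 times before *Dnmt3l* start 2 and 5, 4 and 1 times before the 3 *Dnmt3a* starts, and was absent before *Dnmt3l* starts 1 and 3. It was absent before *Dnmt1* starts 1 and 2 and present 2 times before start 3. *Dnmt3b*, *Uhrf2* and the second *Uhrf1* start held 3 each, and the first *Uhrf1* start and the TET genes 1 each. The E-box CACGTG, found in 6.02% of promoters, was present once before *Dnmt3l* start 2 and once before *Dnmt3a* start 3. The MYB motif TAACNG (19.84% of promoters) was found only before *Uhrf2* among the members, and the CRE TGACGTCA (1.55%) before none of them. These matches describe the letters in these windows.

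The libraries held 18308688 to 22044507 estimated counts in *Arid1a* WT and 15850961 to 21626772 in *Arid1a* cKO. Pairs of *Arid1a* WT libraries differed more than pairs of *Arid1a* cKO libraries, with a chi-square over genes, divided by its degrees of freedom, of 4.58 (replicates 1 and 4) to 19.1 (replicates 3 and 4) against 1.74 to 3.59. Levels in CPM are counts relative to library size after TMM scaling. In CPM, *Arid1a* WT replicates 1 and 4 were below replicates 2 and 3 for *Tet1*, *Tet2*, *Tet3*, *Dnmt3a* and *Arid1a*. The source of this spread was not tested. *Arid1a* itself fell from 113 ± 13.8 CPM (SD, n = 4) to 79.7 ± 2.89 CPM, a log2 fold change of -0.51 (SE 0.07, adjusted p = 2.31e-05). The study detected transcripts of the excised allele by RT-PCR in *Arid1a* cKO pachytene spermatocytes. A count per gene can include them, so this fall is not a measure of excision or of ARID1A loss. Throughout, the test was the quasi-likelihood test of edgeR, adjusted over all 17643 genes by Benjamini-Hochberg, and a gene was called at an adjusted p of 0.05 or less. A large part of the transcriptome differed between genotypes: 74.0% of all genes tested were called, 36.5% higher and 37.5% lower in *Arid1a* cKO. Against this background, 8 of the 9 members (88.9%) were called, 4 higher (*Dnmt3a*, *Dnmt3l*, *Tet1* and *Tet3*) and 4 lower (*Dnmt1*, *Uhrf1*, *Uhrf2* and *Tet2*). The CPM values of the genotypes did not overlap for 6 of 9 members (66.7%), near the 68.9% of all genes tested. In TPM, a level scaled for transcript length, 6 members did not overlap either, against 64.8% of all genes tested, and 4 were the same genes (*Dnmt1*, *Uhrf1*, *Dnmt3a* and *Dnmt3l*). The median size of the log2 fold change was 0.61 over the members and 0.76 over all genes tested. Passing the test was therefore common among all genes, and the members are described below by the direction and size of each difference.

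**Figure D1:**
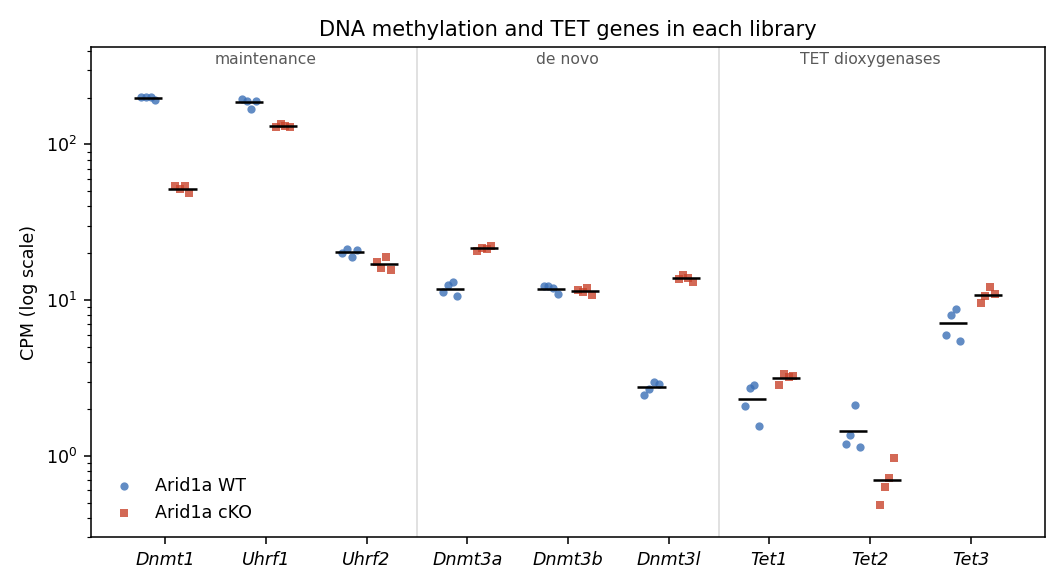
CPM of each member on a log axis, with 1 point per library (circles, *Arid1a* WT; squares, *Arid1a* cKO) and a line at the mean of each genotype. *Dnmt1* dropped from between 192 and 202 CPM to between 48.6 and 54.0 CPM, and *Dnmt3l* rose from between 2.47 and 2.96 CPM to between 13.0 and 14.6 CPM.

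The 3 maintenance genes were all lower in *Arid1a* cKO. *Dnmt1* (Entrez 13433, chr9:20907206-20959888, GRCm38.p6), the maintenance methyltransferase, was measured at 202, 201, 201 and 192 CPM in the *Arid1a* WT libraries and at 53.8, 51.6, 54.0 and 48.6 CPM in the *Arid1a* cKO libraries. The lowest *Arid1a* WT library lay far above the highest *Arid1a* cKO library. *Dnmt1* fell 3.83-fold (log2 fold change -1.94, SE 0.05, 95% interval -2.04 to -1.83, adjusted p = 1.23e-13), which ranks as the 589th largest fall among the 17643 genes.

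*Uhrf1* (Entrez 18140, chr17:56303337-56323486) encodes the protein that recruits DNMT1 to hemimethylated CpG. It was measured at 196, 191, 169 and 191 CPM in *Arid1a* WT and at 130, 135, 132 and 130 CPM in *Arid1a* cKO. The genotypes did not overlap, and the *Arid1a* cKO libraries lay close together. *Uhrf1* fell by 0.51 on the log2 scale (SE 0.05, adjusted p = 5.68e-07). Of the 31-base words in its transcripts, 24.2% occur in other genes and 21.9% in the predicted gene *Gm5648*, so the split of reads between these loci is uncertain.

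*Uhrf2* (Entrez 109113, chr19:30030430-30093726), the paralogue of *Uhrf1*, was measured at 20, 21.4, 19 and 20.9 CPM in *Arid1a* WT and at 17.5, 16.2, 19 and 15.7 CPM in *Arid1a* cKO. The genotypes overlapped, because the third *Arid1a* cKO library reached the level of the lowest *Arid1a* WT library. *Uhrf2* fell by 0.24 on the log2 scale (SE 0.07, adjusted p = 0.00851), a smaller difference than that of 82.6% of genes tested.

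In the DNMT3 family, *Dnmt3a* and *Dnmt3l* were higher in *Arid1a* cKO and *Dnmt3b* was not called. *Dnmt3a* (Entrez 13435, chr12:3801559-3914443), a de novo methyltransferase, was measured at 11.2, 12.5, 13.1 and 10.6 CPM in *Arid1a* WT and at 20.6, 21.7, 21.4 and 22.4 CPM in *Arid1a* cKO. All 4 *Arid1a* cKO libraries were above all 4 *Arid1a* WT libraries. *Dnmt3a* rose by 0.86 on the log2 scale (SE 0.08, 95% interval 0.70 to 1.03, adjusted p = 1.13e-07), or 1.82-fold. It shares 133 exonic bases with the antisense gene *Dnmt3aos*, 0.8% of its exonic length, and the strandedness of the reads is not given in the sources used here.

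*Dnmt3b* (Entrez 13436, chr2:153649411-153687730), the second de novo methyltransferase, was measured at 12.3, 12.3, 12.0 and 10.9 CPM in *Arid1a* WT and at 11.7, 11.2, 11.9 and 10.8 CPM in *Arid1a* cKO. In CPM 3 of the 4 *Arid1a* WT libraries lay above every *Arid1a* cKO library, and the ranges overlapped through *Arid1a* WT replicate 4. Its log2 fold change was -0.06 (SE 0.07, adjusted p = 0.50), and the 95% interval of -0.22 to 0.10 holds differences of up to that size in either direction. In TPM the libraries ran from 4.55 to 5.51 in *Arid1a* WT and from 3.81 to 4.40 in *Arid1a* cKO without overlap, and limma called *Dnmt3b* lower on log2(TPM + 1) (-0.20, adjusted p = 0.0287) and on log2(TPM + 0.1) (-0.23, adjusted p = 0.033). *Dnmt3b* shares 13.5% of its 31-base words with *Dnmt3c*, a rodent paralogue that silences young retrotransposons in the male germ line and was not analysed here.

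*Dnmt3l* (Entrez 54427, chr10:78042287-78063622), the catalytically inactive partner, had the largest change of the members in edgeR. It was measured at 2.47, 2.70, 2.96 and 2.91 CPM in *Arid1a* WT, from 50 to 64 estimated counts a library, and at 13.7, 14.6, 13.9 and 13.0 CPM in *Arid1a* cKO, from 203 to 291 estimated counts. The lowest *Arid1a* cKO library lay far above the highest *Arid1a* WT library. *Dnmt3l* rose 5.0-fold (log2 fold change 2.32, SE 0.09, 95% interval 2.12 to 2.52, adjusted p = 1.32e-11), which ranks as the 846th largest rise. On the opposite strand it shares 67 exonic bases, 2.24% of its exonic length, with *Aire*. Under limma on log2(TPM + 1) the change of *Dnmt1* was the larger (-1.88, against 1.79 for *Dnmt3l*).

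Among the TET dioxygenases, *Tet3* and *Tet1* were higher and *Tet2* was lower in *Arid1a* cKO. *Tet1* and *Tet2* had few counts. *Tet3* (Entrez 194388, chr6:83362373-83457208) was measured at 5.99, 8.05, 8.83 and 5.46 CPM in *Arid1a* WT and at 9.53, 10.6, 12.2 and 11 CPM in *Arid1a* cKO. The genotypes did not overlap in CPM, and *Arid1a* WT replicates 1 and 4 lay below replicates 2 and 3. *Tet3* rose by 0.61 on the log2 scale (SE 0.14, adjusted p = 0.00114, edgeR). In TPM the genotypes overlapped (up to 1.43 in *Arid1a* WT and from 1.36 in *Arid1a* cKO), and the call was lost under limma on log2(TPM + 0.1) (0.44, adjusted p = 0.0521).

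*Tet1* (Entrez 52463, chr10:62804570-62887469) was measured at 2.08, 2.74, 2.86 and 1.55 CPM in *Arid1a* WT and at 2.85, 3.37, 3.21 and 3.28 CPM in *Arid1a* cKO. The third *Arid1a* WT library lay level with the lowest *Arid1a* cKO library, so the genotypes overlapped. Its log2 fold change was 0.46 (SE 0.18, adjusted p = 0.0361). The call was lost without *Arid1a* WT replicate 1 (adjusted p = 0.0832) or replicate 4 (0.0813), and without *Arid1a* cKO replicate 2 (0.0812), 3 (0.0704) or 4 (0.0728), in the same edgeR test.

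*Tet2* (Entrez 214133, chr3:133463677-133545136) was the rarest member. It was measured at 1.19, 1.37, 2.11 and 1.14 CPM in *Arid1a* WT, from 24.0 to 42.0 estimated counts, and at 0.484, 0.628, 0.718 and 0.964 CPM in *Arid1a* cKO, from 9 to 15 estimated counts. In CPM each *Arid1a* cKO library was below each *Arid1a* WT library, and in TPM the genotypes overlapped (0.190 to 0.395 and 0.0989 to 0.266). *Tet2* fell by 1.06 on the log2 scale (SE 0.28, 95% interval -1.66 to -0.45, adjusted p = 0.00356 in edgeR). When edgeR was given offsets for the recovered transcript length of each gene and library, the log2 fold change was -0.68 and the call was lost (adjusted p = 0.112). The call was also lost under limma, at -0.12 on log2(TPM + 1) (adjusted p = 0.168) and -0.47 on log2(TPM + 0.1) (adjusted p = 0.126).

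**Figure D2:**
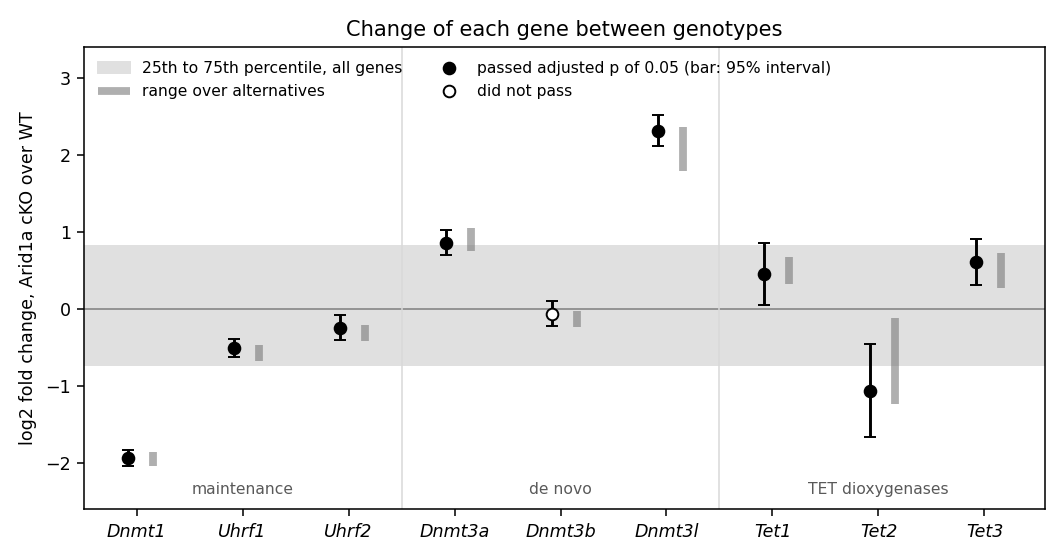
Log2 fold change of *Arid1a* cKO over *Arid1a* WT for each member, with its 95% interval (black bars), the range over all alternative settings (grey bars) and the 25th to 75th percentile of all genes tested (band, -0.72 to 0.82). *Dnmt1* and *Dnmt3l* lie far outside the band in opposite directions, and the open symbol of *Dnmt3b* (-0.06) marks the single member that was not called.

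Levels of different genes were compared in TPM (transcript abundance per length, scaled to a fixed total in each library), which accounts for transcript length. The TPM of the listed genes summed to 78.1% to 81.1% of the full TPM scale in *Arid1a* WT libraries and to 88.1% to 88.6% in *Arid1a* cKO libraries, so TPM and CPM are not on a common scale between genotypes. In *Arid1a* WT the order was led by *Uhrf1* at 91.8 ± 6.82 TPM (SD, n = 4) and *Dnmt1* at 55.5 ± 5.61 TPM. Their libraries did not overlap with each other or with the next gene. *Uhrf2* (9.88 ± 0.848), *Tet1* (8.31 ± 3.47), *Dnmt3b* (4.87 ± 0.451), *Dnmt3a* (4.34 ± 0.896) and *Dnmt3l* (3.82 ± 0.715 TPM) followed, and each neighbour in this run overlapped with the next. *Tet3* (1.15 ± 0.282 TPM) and *Tet2* (0.284 ± 0.0897 TPM) were lowest and separate.

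In *Arid1a* cKO, *Uhrf1* was still first at 58.0 ± 6.16 TPM. *Dnmt3l* moved from the seventh place to the second, at 15.6 ± 1.46 TPM, beside *Dnmt1* at 14.3 ± 0.855 TPM and *Tet1* at 12.1 ± 1.56 TPM. *Dnmt3l* overlapped with *Dnmt1*, and *Dnmt1* with *Tet1*, while every *Dnmt3l* value (from 14.2 TPM) lay above every *Tet1* value (up to 13.6 TPM). *Dnmt3a* (8.33 ± 0.79 TPM) and *Uhrf2* (7.43 ± 0.957 TPM) overlapped, and *Dnmt3b* (4.12 ± 0.249 TPM), *Tet3* (1.57 ± 0.226 TPM) and *Tet2* (0.181 ± 0.0822 TPM) came last without overlap. *Tet1* holds its place on few reads, 33.6 to 66.6 estimated counts a library. Its recovered effective transcript length was 455 nt in *Arid1a* WT and 372 nt in *Arid1a* cKO, near the shortest of its annotated transcripts (361 to 14369 nt), so its TPM is not a level of the full-length mRNA.

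**Figure D3:**
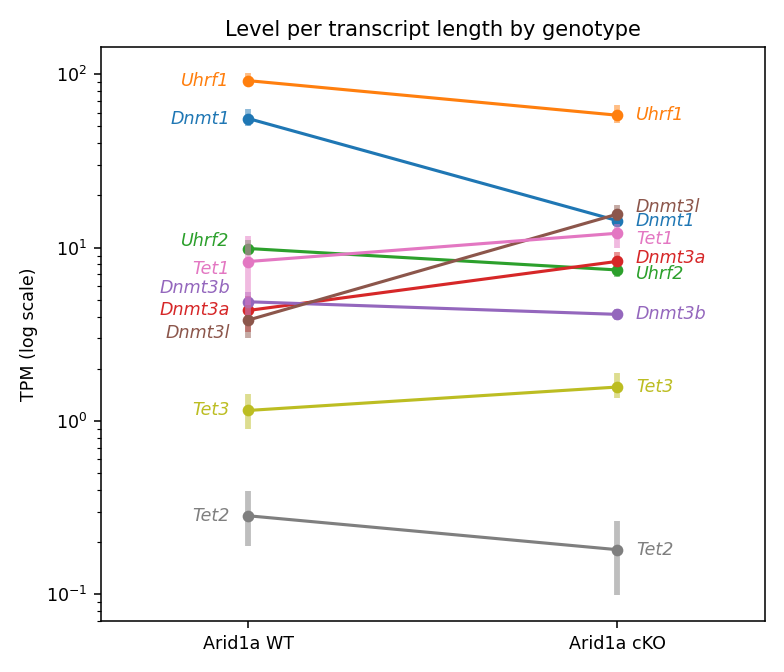
TPM of each member (log axis) in *Arid1a* WT and *Arid1a* cKO, with dots at the mean of 4 libraries and thick bars from the lowest to the highest library. The lines of *Dnmt1* (55.5 to 14.3 TPM) and *Dnmt3l* (3.82 to 15.6 TPM) cross, while *Uhrf1* is first in both genotypes.

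The makeup of the DNMT transcripts differed between genotypes. *Dnmt1* held 81.0% ± 0.721 (SD, n = 4) of the summed TPM of the 4 DNMT genes in *Arid1a* WT and 33.9% ± 1.37 in *Arid1a* cKO. *Dnmt3l* held 5.56% ± 0.822 and 36.8% ± 2.44, and *Dnmt3a* 6.29% ± 0.761 and 19.6% ± 1.32. *Dnmt3b*, whose own CPM was not called, went from 7.12% ± 0.157 to 9.72% ± 0.445 of a smaller sum. The ratio of *Dnmt1* to *Dnmt3l* TPM was between 12.4 and 17.4 in *Arid1a* WT libraries and between 0.805 and 1.02 in *Arid1a* cKO libraries. *Dnmt3a* was below *Dnmt3b* in every *Arid1a* WT library (ratio 0.717 to 0.996) and above it in every *Arid1a* cKO library (1.85 to 2.16). In the maintenance pair, the ratio of *Uhrf1* to *Dnmt1* TPM was 1.44 to 1.81 in *Arid1a* WT and 3.52 to 4.94 in *Arid1a* cKO, and that of *Uhrf1* to *Uhrf2* overlapped (9.03 to 9.95 and 6.18 to 9.78).

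**Figure D4:**
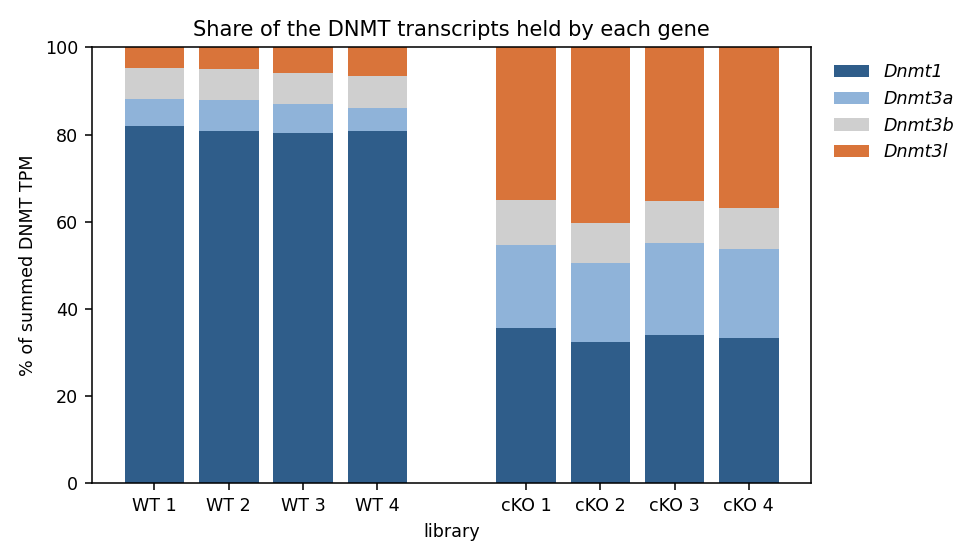
Share of the summed TPM of *Dnmt1*, *Dnmt3a*, *Dnmt3b* and *Dnmt3l* held by each gene, with 1 stacked bar per library. *Dnmt1* takes 80.3% to 82.0% of the bar in *Arid1a* WT and 32.4% to 35.6% in *Arid1a* cKO, and *Dnmt3l* takes 4.71% to 6.50% and 35.0% to 40.2%.

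Transcript choice within a gene was read from the estimated count divided by TPM, which is proportional to the abundance-weighted length of the transcripts used. This length was tested with limma over 13958 genes, of which 13.0% were called at an adjusted p of 0.05 and a difference of at least 0.1 log2 units. None of the 8 members tested was called, and 3 had an unadjusted p under 0.05. *Tet2* was left out because a library had under 10 counts. *Arid1a*, which is not a member, averaged 7791 nt in *Arid1a* WT and 7237 nt in *Arid1a* cKO. It was called (log2 difference -0.11, SE 0.02, adjusted p = 0.0231, limma), and the libraries of the genotypes did not overlap. *Dnmt3a* averaged 4301 nt in *Arid1a* WT and 3677 nt in *Arid1a* cKO (log2 difference -0.23, SE 0.08, adjusted p = 0.136, limma), and the libraries of the genotypes did not overlap. *Tet1* differed by -0.28 (SE 0.11, adjusted p = 0.16, limma), also without overlap. *Dnmt1* averaged 5589 ± 292 nt (SD, n = 4) and 5122 ± 91 nt (log2 difference -0.12, SE 0.04, adjusted p = 0.0817, limma), with *Arid1a* WT replicate 3 at 5152 nt. Without that library the *Dnmt1* difference was -0.16 and was called (adjusted p = 0.00156, limma). *Dnmt3l* averaged 1137 nt and 1255 nt (log2 difference 0.14, SE 0.07, adjusted p = 0.262, limma). Its annotated transcripts run from 210 to 1822 nt, so its TPM and its share are not levels of the longest transcript alone.

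The genes that work with these enzymes were followed in fixed lists. Of 89 such genes tested, 68 (76.4%) were called, 32 higher and 36 lower, against 74.0% of all genes. Of the 7 partners of maintenance methylation, 4 rose and 3 fell, with a median log2 fold change of 0.40 against -0.02 over all genes. The genes named below as having risen or fallen had SEs of 0.05 to 0.16 and adjusted p-values of 0.00334 (*Neil3*) or less in edgeR. *Usp7*, the deubiquitinase that binds DNMT1 and UHRF1, rose from 306 ± 8.57 to 627 ± 21.5 CPM (SD, n = 4, log2 fold change 1.04). *Cdca7*, which recruits the remodeler HELLS to chromatin, rose from 8.11 to 13.6 CPM (0.74), and *Pclaf* from 3.51 to 5.83 CPM (0.73). *Zbtb24*, an activator of *Cdca7*, fell from 24.3 to 11.2 CPM (-1.11). The replication clamp gene *Pcna* fell from 112 to 66.5 CPM (-0.76), and the ligase gene *Lig1* from 43.0 to 33.3 CPM (-0.37).

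Of the 6 genes tested for germline de novo methylation, 2 rose, 2 fell and 2 were not called (median -0.18). *Tex15*, which acts in piRNA-directed silencing of transposons, rose from 65.3 ± 1.87 to 327 ± 14.9 CPM (log2 fold change 2.32, SE 0.05). *Setd2*, a histone methyltransferase whose mark guides de novo methylation, fell from 150 ± 10.9 to 62.0 ± 1.75 CPM (-1.27, SE 0.06). *Morc1*, a transposon silencing factor, fell from 10.7 to 8.30 CPM (-0.36).

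The list of methyl-CpG binding domain and related zinc finger genes, whose products do not all prefer methylated DNA, moved in both directions, with 5 of 10 higher, 2 lower and 3 not called (median 0.28). *Mbd1* fell from 42.4 ± 3.08 to 9.68 ± 0.54 CPM (log2 fold change -2.13), and *Mbd3*, a NuRD subunit whose mammalian protein does not prefer methylated CpG, from 162 to 81.6 CPM (-0.99). The glycosylase gene *Mbd4* rose from 7.24 to 16.9 CPM (1.23). *Mbd5* rose from 23.4 to 41.2 CPM (0.82).

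Among 8 cofactor and regulator genes of the TET enzymes, 4 rose, 2 fell and 2 were not called (median 0.26). *Cxxc5*, whose protein carries a CXXC domain and binds TET2, rose from 27.6 ± 0.698 to 140 ± 1.93 CPM (log2 fold change 2.34, SE 0.05). *Dcaf1*, a ubiquitin ligase subunit, rose from 94.0 to 222 CPM (1.24), and the X-linked *Ogt*, a TET-binding glycosyltransferase, from 16.8 to 24.7 CPM (0.56). *Idh1*, an enzyme that makes the TET cosubstrate, fell from 25.2 to 20.7 CPM (-0.29).

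Of 11 base excision genes, which can remove oxidised or deaminated bases, 4 rose, 3 fell and 4 were not called (median -0.11). *Parp1* fell from 222 ± 20.9 to 103 ± 0.726 CPM (log2 fold change -1.11), *Xrcc1* from 142 to 90.2 CPM (-0.65) and *Smug1* from 3.93 to 2.16 CPM (-0.87). *Ung* rose from 6.60 to 9.81 CPM (0.57), *Polb* from 141 to 181 CPM (0.37) and *Neil3* from 26.4 to 30.6 CPM (0.21). *Tdg*, the glycosylase that acts on TET products, was measured at 6.05 and 5.62 CPM (-0.11, adjusted p = 0.415 in edgeR), and was chosen for mention after its value was seen.

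The methyl donor cycle, which supplies S-adenosylmethionine to the DNMT enzymes, had 11 of 16 genes called lower, 3 higher and 2 not called (median -0.47), against 37.5% lower and 36.5% higher among all genes tested, a difference that was not tested. *Bhmt*, which remethylates homocysteine, fell from 7.27 ± 0.73 to 1.38 ± 0.188 CPM (log2 fold change -2.40). *Mat2a*, the S-adenosylmethionine synthetase, fell from 141 ± 14.2 to 60.1 ± 1.32 CPM (-1.23), and *Ahcy*, which clears the product of methyl transfer, from 12.1 to 5.79 CPM (-1.06). *Mthfd1* rose from 4.34 to 7.98 CPM (0.88) and *Ahcyl2* from 101 to 129 CPM (0.35).

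**Figure D5:**
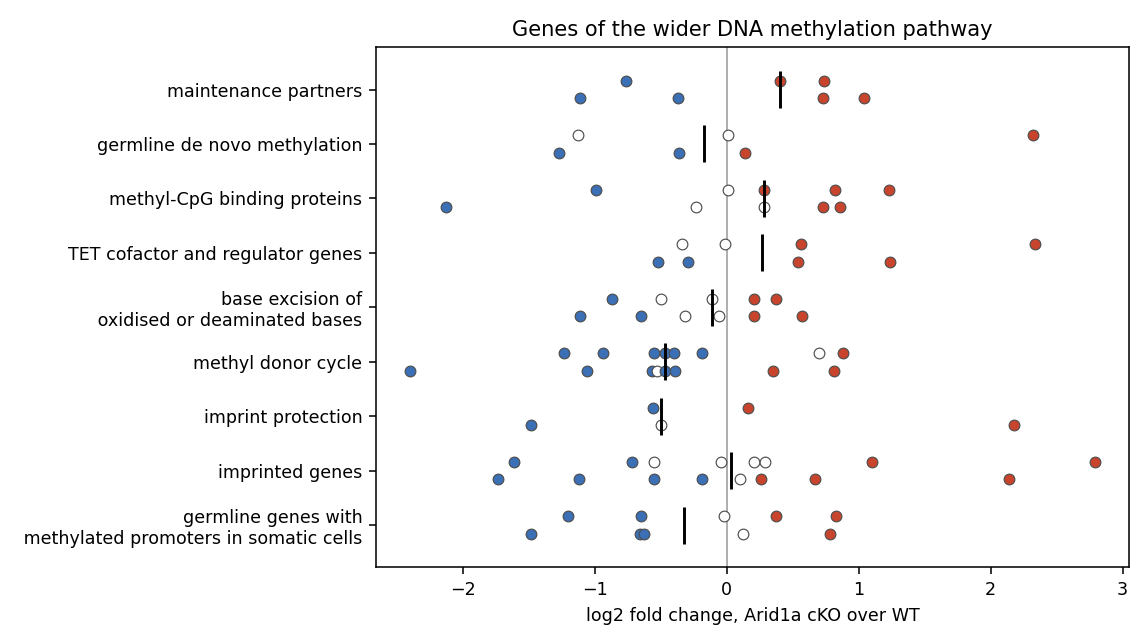
Log2 fold change of *Arid1a* cKO over *Arid1a* WT for each tested gene of 9 lists, with filled points for genes called (red, higher; blue, lower), open points for the rest and a line at the median of each list. All 9 lists have points on both sides of 0, and their medians run from -0.50 (imprint protection) to 0.40 (maintenance partners).

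Markers of other cell types moved with genotype beside all of these results. All 16 spermatid markers rose, with a summed level of 2250 to 2520 CPM in *Arid1a* WT and 10800 to 11100 CPM in *Arid1a* cKO. All 9 Sertoli cell markers tested fell (468 to 533 CPM and 132 to 138 CPM), as did 5 of 6 Leydig cell markers (56.6 to 60.2 CPM and 8.11 to 8.61 CPM). Of 12 spermatogonial markers 9 rose and 2 fell, while their sum went from between 215 and 218 CPM to between 191 and 203 CPM. The fall of that sum was carried by its most abundant gene, *Id4* (90.3 to 14.4 CPM), and the other 11 markers summed to 124 to 130 CPM in *Arid1a* WT and 177 to 189 CPM in *Arid1a* cKO. Of 8 leptotene and zygotene markers 4 rose and 4 fell (1380 to 1720 CPM and 668 to 724 CPM). Among them *Spo11*, which makes meiotic breaks, fell from 134 to 21 CPM and *Sycp2* from 1000 to 317 CPM, while *Rec8*, a meiotic cohesin gene, rose from 23.8 to 134 CPM and *Dmc1*, a recombinase gene, from 4.65 to 18.3 CPM. Of 8 peritubular and vascular markers 6 rose (25.5 to 31.6 CPM and 45.5 to 49.8 CPM), as did 6 of 8 macrophage and blood markers (5.40 to 6.51 CPM and 12.7 to 15.2 CPM). Pachytene markers summed to 10700 to 12500 CPM and 9600 to 9940 CPM, 4 of 12 higher and 6 lower, with *Sycp1* at 166 and 294 CPM and *Sycp3* at 216 and 137 CPM. The largest fall of that list was in *Piwil1*, a piRNA pathway gene, from 1600 to 109 CPM, and the largest rise in *Pgk2*, from 277 to 786 CPM. *Id4*, *Sycp2*, *Rec8*, *Dmc1*, *Piwil1* and *Pgk2* were chosen for mention after their values were seen. No tested marker of any list was at 0. The part of these shifts in the differences of the 9 genes was not tested, and in bulk RNA fewer cells of a type and less RNA per cell cannot be told apart.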

How the data were processed

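RNA-seq of 4 *Arid1a* WT and 4 *Arid1a* cKO pachytene spermatocyte samples was analysed, with groups and replicate numbers taken from the sample labels. The authors quantified reads with Salmon, summed transcripts to Entrez genes with tximport on mm10, and deposited estimated counts per gene, unscaled for depth or transcript length. A second deposited table holds TPM, scaled by Salmon over every transcript quantified. Their table of differential expression holds DESeq2 log2 fold changes and p-values and was not used. There were 0 unused sample columns.

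Estimated counts were rounded, although the design had been written for counts as deposited. A gene entered the test if its counts over the 8 libraries came to 10 or more. Genotype was the single factor in edgeR 4.0.16 (TMM, glmQLFit, glmQLFTest) under R 4.3.3. CPM used TMM-adjusted library sizes. Pooled spreads between replicates gave a common biological coefficient of variation of 0.0709. Transcript length, the estimated count divided by TPM, was centred per library, scaled on 1414 single-transcript genes (recovered over annotated length 0.853 to 1.05, 10th to 90th percentile) and tested with limma 3.58.1 in genes with 10 counts in every library. Gene coordinates and promoters are from RefSeq GRCm38.p6, and shared 31-base words and exonic overlaps from GENCODE M21. The scripts were tested on simulated data. Tables and figures used Python 3.11.15, pandas 2.3.3 and matplotlib 3.10.9.

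The alternatives were DESeq2 1.42.0, other normalizations and count filters, length offsets, limma on log2 TPM with a pseudocount of 1 or 0.1, a threshold of 0.01, the replicate number as a block, and each library left out in turn. The members and lists were chosen with earlier results of these data known. Named genes were the 9 members, *Arid1a*, up to 3 genes with the largest rise and 3 with the largest fall per list (called, average log2 CPM of at least 1, genotypes not overlapping) and leading cell type markers, of which some are not reported here. *Dnmt3c*, *Spocd1*, *H19*, *Kcnq1ot1*, *Meg3* and *Hbb-bs* were listed and not analysed here, and *Dppa3* and *Rhox5* were under the count minimum. ATAC-seq and CUT&RUN were not analysed here.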

Additional observations from a re-analysis of the deposited data

Results flagged for a closer look

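*Dnmt1* in *Arid1a* WT replicate 4 was low against the other *Arid1a* WT libraries, at 192 CPM where the others were at 201 to 202 CPM. Its gap to the nearest library was 0.908 of the range of the group. The 9 members in 2 genotypes give 18 groups of 4 libraries, of which chance alone would be expected to mark about 0.9.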

How the results depend on the processing

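Of the counts of genes, 150 values under the alternatives stayed within 1.5 times the count reported and 2 did not. That limit also takes in the fall from 8 to 6 of the 9 members called under limma on log2(TPM + 0.1). In that fit 12250 of all 17643 genes were called. Under limma on log2(TPM + 0.1), 2 members (*Dnmt3a* and *Dnmt3l*) were called higher in place of 4. Among all 17643 genes, 5573 were called higher in that fit in place of 6435. Leaving out each library in turn gave 7 to 8 members called (71.6% to 74.9% of all genes in the same refits) and 6 to 8 without overlap in CPM (70.4% to 72.7% of all genes). The same refits gave 0 to 1 members with a length difference. With every library, 13.0% of all genes tested for length were called, and their share in the refits is not given here. Of the log2 fold changes and mean TPM of single genes, 247 stayed the same in direction and side of the threshold or within the spread between replicates, 13 lost the call, 2 gained it and 0 reversed. The losses were in *Tet1*, *Tet2* and *Tet3* alone. *Tet1* was lost without TMM (0.36, adjusted p = 0.126, edgeR), under limma on log2(TPM + 1) (adjusted p = 0.0806) and log2(TPM + 0.1) (0.107), at an adjusted p of 0.01, and without 5 of the 8 libraries in turn. *Tet2* was lost under limma on log2(TPM + 1) (-0.12, adjusted p = 0.168) and log2(TPM + 0.1) (-0.47, 0.126), and with length offsets. *Tet3* was lost under log2(TPM + 0.1) (0.44, adjusted p = 0.0521, limma). *Dnmt3b* was called lower under both TPM scales (-0.20, adjusted p = 0.0287, and -0.23, adjusted p = 0.033, limma). The cause was not tested. Log2 fold changes ran from -2.04 to -1.85 for *Dnmt1* and from 1.79 to 2.36 for *Dnmt3l* over all alternatives. Without TMM the median of all genes moved by -0.1. TPM in place of CPM, chosen after seeing the data, left 6 members without overlap (64.8% of all genes), 4 of them the same genes: *Dnmt3b* and *Uhrf2* took the place of *Tet2* and *Tet3*. Replicate numbers are shared between genotypes, but the correlation of deviations of same-numbered libraries was 0.162, 0.0125, 0.0852 and -0.137, and not every library correlated best with its own number. With the replicate number as a block, 8 members and 13100 genes were called (6429 higher and 6671 lower), against 13048 without it. *Tet2* and *Tet1* had the lowest mean estimated counts of the members in both genotypes, at 9 to 66.6 a library. *Dnmt3l* in *Arid1a* WT was near them, at 50 to 64. The effect of depth was not tested.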

Other observations

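Genes known for regulation by DNA methylation moved in both directions. Among all genes tested, 74.0% were called, 36.5% higher and 37.5% lower, and the lists below were not tested against these shares. Of 10 germline genes whose promoters are methylated in somatic cells, 3 rose, 5 fell and 2 were not called (median log2 fold change -0.32). *Tex101*, a germ cell surface protein gene, fell from 301 ± 23.7 to 108 ± 8.15 CPM (SD, n = 4), and *Hormad1*, a chromosome axis gene, from 231 to 101 CPM. *Dazl*, an RNA-binding protein gene, rose from 106 to 182 CPM, and *Mael*, of the piRNA pathway, from 1220 to 1580 CPM.

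Of 16 imprinted genes tested, 5 rose, 6 fell and 5 were not called (median 0.03). *Rasgrf1* rose from 3.09 ± 0.373 to 13.6 ± 1.14 CPM and *Cdkn1c* from 4.24 to 9.08 CPM, while *Peg10* fell from 29.8 ± 3.80 to 9.78 ± 0.861 CPM and *Grb10* from 44.8 to 20.6 CPM. Of 5 genes that protect imprints, 2 rose, 2 fell and 1 was not called (median -0.50). The zinc finger gene *Zfp57* rose from 15.8 ± 1.23 to 71.3 ± 1.44 CPM (log2 fold change 2.18), and *Zfp445* fell from 112 ± 18.5 to 40.2 ± 1.43 CPM (-1.48). *Trim28*, the corepressor of both, fell from 624 to 425 CPM (-0.56). DNA methylation itself was not measured in these libraries.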
